A study of Mus musculus with 46 samples.

Results

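Hmgcs1, Sqle, Idi1, Fdft1, Lss, Cyp51 and Insig1, 6 enzymes of cholesterol synthesis and a brake on the pathway, were followed through microglial depletion, repopulation and an inflammatory challenge in the mouse brain. The genes were chosen by name, as the rows carrying these symbols, and are 7 of the 21231 genes listed in at least 1 of 3 expression tables. All mice were male C57BL/6 animals aged 2 months at the start, and microglia were removed with PLX3397, an inhibitor of the receptor kinases CSF1R, KIT and FLT3, given at 600 ppm in chow. In white matter (WM) repopulation, 14 days of inhibitor were followed by 28 days of recovery on control diet, whereas global (GLOBAL) repopulation followed 7 days of inhibitor and the same recovery. The main experiment sorted CD11b+CD45int cells from whole hemispheres of control mice and of WM repopulated mice that received no lipopolysaccharide (LPS, 0 hr) or were collected 6 or 24 hr after 0.33 mg/kg LPS by intraperitoneal injection. LPS is a bacterial cell wall component that triggers an innate immune response. There were 3, 5 and 4 control libraries and 4, 4 and 4 WM libraries at 0, 6 and 24 hr. A second table held 4 libraries of sorted cells from control mice and 3 from GLOBAL repopulated mice without LPS, and another held subventricular zone (SVZ) tissue in 5 libraries from control mice, 5 after 14 days of PLX3397 and 5 after 5 days of recovery. The labels name the sorted cells by 2 surface proteins that microglia share with other myeloid cells, so the gate does not by itself separate the original cells from those that repopulate the brain.

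Cells make cholesterol from acetyl-CoA through the mevalonate pathway, and brain cells depend on local synthesis because circulating lipoproteins do not cross the blood-brain barrier in appreciable amounts. When sterols run low in the endoplasmic reticulum, the escort protein SCAP carries the transcription factor SREBP-2 to the Golgi, where it is cut free to switch on the enzymes of the pathway. When sterols are plentiful, INSIG proteins hold SCAP in the endoplasmic reticulum, and Insig1 is itself an SREBP target, so it closes a feedback loop. Hmgcs1 makes HMG-CoA at the head of the pathway. Idi1 interconverts the isoprenoid units, Fdft1 joins farnesyl units into squalene, Sqle oxidises squalene, Lss folds the oxidised squalene into the ring system of lanosterol and Cyp51 removes a methyl group from lanosterol.

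In mouse build GRCm38, RefSeq places Hmgcs1 at chr13:119690351-119708260, Idi1 at chr13:8885606-8892396, Sqle at chr15:59315092-59331193, Fdft1 at chr14:63145150-63181687, Lss at chr10:76531565-76557139, Cyp51 at chr5:4080674-4104697 and Insig1 at chr5:28071412-28078662. In the GENCODE annotation of this build, some exon bases of 5 of the genes are shared with a gene on the opposite strand: 557 of 4594 for Hmgcs1 (Gm48342), 323 of 3505 for Idi1 (Gm48574), 774 of 4227 for Fdft1 (Ctsb), 381 of 10787 for Lss (4930483K19Rik) and 166 of 4415 for Cyp51 (Akap9). Reads from such bases cannot be told apart where counting does not use strand. The lengths implied by the expression values were shorter, at 3283, 2866, 2863, 3102 and 4353 bases in the same order. The shared part of the counted bases is therefore not known. RefSeq promoter sequence (GRCm38.p6) was matched by symbol for 5 of the 7 genes; Fdft1 and Sqle were not matched. The 250 bases before the start of Hmgcs1, Cyp51 and Insig1 are shown because these genes stand for the head, the late steps and the feedback arm of the pathway. Capitals mark every match, on either strand, to TCACNCCAC (a core of the sterol regulatory element), CCAAT (the NF-Y box) or GGGCGG (the Sp1 box).
Hmgcs1, chr13:119690101-119690350, plus strand: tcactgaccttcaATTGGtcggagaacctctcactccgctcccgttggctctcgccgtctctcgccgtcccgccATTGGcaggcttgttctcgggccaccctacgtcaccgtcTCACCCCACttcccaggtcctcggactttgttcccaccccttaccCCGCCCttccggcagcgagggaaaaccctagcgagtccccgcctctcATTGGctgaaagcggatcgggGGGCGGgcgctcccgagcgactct
Cyp51, chr5:4104698-4104947, minus strand: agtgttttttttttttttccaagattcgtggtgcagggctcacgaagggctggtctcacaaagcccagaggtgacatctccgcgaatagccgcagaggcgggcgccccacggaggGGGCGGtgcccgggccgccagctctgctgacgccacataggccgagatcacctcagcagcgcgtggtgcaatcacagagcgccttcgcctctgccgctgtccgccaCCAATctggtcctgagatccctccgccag
Insig1, chr5:28071162-28071411, plus strand: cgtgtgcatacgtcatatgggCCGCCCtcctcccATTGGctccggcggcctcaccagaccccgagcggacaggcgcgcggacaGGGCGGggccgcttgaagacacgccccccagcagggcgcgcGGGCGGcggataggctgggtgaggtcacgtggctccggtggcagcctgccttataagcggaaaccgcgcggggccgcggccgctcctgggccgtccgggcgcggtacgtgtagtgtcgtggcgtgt
Only the Hmgcs1 window of the 5 held TCACNCCAC, at bases 137 to 129 before the start, together with 3 CCAAT and 2 GGGCGG matches. The Cyp51 window held 1 CCAAT and 1 GGGCGG match, and the Insig1 window held 1 and 3. The Lss window held 1 CCAAT and 2 GGGCGG matches, and the Idi1 window held 2 and 1. Of 32851 mouse promoter windows of the same length, 1.05% held TCACNCCAC, 33.8% held CCAAT and 32.7% held GGGCGG. A match is a stretch of letters, and binding was not measured.

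Expression was given as FPKM, a read count scaled by transcript length and library size. The reads behind the values came to 4947407 to 11023348 per sorted-cell library, 4573313 to 10526892 per SVZ library and 2068527 to 5443609 per GLOBAL library. In the sorted-cell table the 6 microglial markers (P2ry12, Tmem119, Cx3cr1, Csf1r, Sall1 and Siglech) were all detected, and their summed FPKM of 9643 to 11650 in control and 10820 to 12660 in WM cells at 0 hr bears out the label of the sort. All 6 fell at 6 hr and at 24 hr in both kinds of cells, to sums of 2882 to 4129 and 2595 to 6120 in control cells and of 3321 to 3574 and 4922 to 6267 in WM cells. The 6 markers of monocytes and neutrophils were also detected in every group, with sums of 1371 to 6207, 2334 to 5352 and 5742 to 13780 FPKM in control cells at 0, 6 and 24 hr and of 2029 to 7544, 1427 to 9576 and 2677 to 5694 in WM cells. The 5 oligodendrocyte precursor markers were low and highest at 6 hr, with sums of 0.0322 to 0.849, 4.47 to 10.6 and 0.745 to 1.61 FPKM in control and 0.780 to 1.098, 5.11 to 14.1 and 1.12 to 1.94 in WM cells. Only Vcan and Cspg4 of them were tested: Vcan, a matrix proteoglycan, rose at 6 hr (2.85 and 2.35) and fell to 24 hr (-2.37 and -2.23), and Cspg4 rose (1.59) and fell (-0.98) in WM cells and was at 0.05 and -0.04 in control cells, neither called. Pdgfra, Gpr17 and Neu4, the other precursor markers, each stayed under 1 FPKM, with Gpr17 at 0 in all control libraries at 0 hr. The 4 tested astrocyte markers were above their 0 hr level at 6 hr in both kinds of cells, 1 of them called. The astrocyte sums were 55.6 to 61.6 and 56.5 to 76.8 FPKM in control and 37.5 to 52.2 and 43.9 to 60.7 in WM cells. At 24 hr they were 39.0 to 43.6 and 36.5 to 57.3, with 1 marker called lower than at 6 hr in each. Of 4 tested border-associated macrophage markers 3 fell at 6 hr in control and 2 in WM cells, with sums from 31.7 to 99.3 to 10.4 to 22.3 and from 17.8 to 27.6 to 7.65 to 10.8 FPKM. At 24 hr these sums were 32.7 to 39.8 and 9.32 to 18.2, with 2 markers called higher than at 6 hr in control and 0 in WM cells. Snap25, the tested 1 of 6 neuronal markers, rose at 6 hr in WM cells (0.91) and was at 0.52 in control cells, with neuronal sums of 2.26 to 3.40 and 3.31 to 4.85 FPKM in control and 2.21 to 4.41 and 3.28 to 7.69 in WM cells at 0 and 6 hr. Oligodendrocyte marker sums were 31.7 to 39.5 and 19.2 to 29.4 in control cells, with 1 of 3 tested called lower, and 28.4 to 31.8 and 23.4 to 32.9 in WM cells, with none called. Fewer cells of a type and less RNA per cell cannot be told apart in such bulk libraries, and the part of any of these marker shifts in the results below was not tested. A pair of control libraries stood apart from their groups: 24 hr replicate 4 (correlation of 0.944 to 0.949 with the others of its group) and 6 hr replicate 2 (0.917 to 0.958).

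Per transcript length, Insig1 was the most abundant of the 7 genes in the sorted cells, with a median of 26.4 FPKM over the 24 libraries. Hmgcs1 (8.22), Cyp51 (6.87), Fdft1 (5.45), Sqle (4.57) and Lss (3.70) followed, and their ranges over the 24 libraries overlapped. These medians pool the times, and the order differed by group: mean Sqle was below Lss in control cells at 0 hr (2.49 against 3.82) and above Cyp51 in WM cells at 6 hr (11.4 against 8.68). Idi1 lay far below, at 0.0466 to 0.807 FPKM or 1 to 16 reads per library. It did not reach the limit of 1 FPKM in 3 libraries and was not tested there, so 6 of the 7 genes entered the sorted-cell tests.

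The first question was how the pathway moved over the LPS course in control cells. At 6 hr, 4 of the 6 tested genes rose (Sqle, Insig1, Hmgcs1 and Cyp51) and none fell. Over all 12684 tested genes 42.5% were called in this comparison and 21.4% were called higher. The summed oligodendrocyte precursor markers were highest at 6 hr, in a range that did not overlap with the other times. Of the 2 tested only Vcan was called in control cells, so the sum alone does not show more precursor cells. The median log2 fold change was 0.69 for the 6 genes and 0.01 for all tested genes. At 24 hr against 0 hr Insig1 alone was called. Sqle was at 0.71 (95% confidence interval 0.01 to 1.41, adjusted p = 0.141), and Hmgcs1, Fdft1, Lss and Cyp51 lay between -0.25 and -0.04. All folds are on the scale of log2(FPKM + 1), which understates the change of low genes, and calls are limma tests with a Benjamini-Hochberg adjusted p under 0.05 over all tested genes.

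Hmgcs1 was at 6.98, 9.11 and 5.98 FPKM in the 3 control libraries at 0 hr, at 12.9, 15.4, 17.7, 15.3 and 11.4 in the 5 at 6 hr, and at 7.45, 9.27, 6.66 and 4.84 in the 4 at 24 hr. Every 6 hr library was above every library of the other times. Such separation was common: in control cells 38.1% of all tested genes did not overlap between 6 and 0 hr. The share was 29.5% between 24 and 0 hr and 21% between 24 and 6 hr. The rise of Hmgcs1 at 6 hr was 0.90 ± 0.20 (log2, SE) or 1.86-fold (limma, adjusted p = 0.000948), and its fall from 6 to 24 hr was -0.96 ± 0.19 (adjusted p = 0.000427). The 24 hr level differed from 0 hr by -0.07, with a 95% confidence interval of -0.50 to 0.37.

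Sqle, which catalyses a rate-limiting oxygen-dependent step after squalene, was at 5.14, 1.58 and 0.737 FPKM at 0 hr, at 10.3, 6.78, 8.58, 8.77 and 8.55 at 6 hr and at 5.68, 5.23, 2.74 and 2.86 at 24 hr in control cells. The 6 hr libraries lay above all others, while the 0 hr libraries spanned a wide range that overlapped with the 24 hr values. Sqle had the largest 6 hr change of the 6 genes, 1.66 ± 0.32 or 3.16-fold (limma, adjusted p = 0.000221), followed by a fall of -0.95 ± 0.30 to 24 hr (adjusted p = 0.0192; 0.0699 without 24 hr replicate 3 and 0.0646 without replicate 4). At 24 hr it was 0.71 above 0 hr, which did not pass the test (adjusted p = 0.141), although it did without 0 hr replicate 1 (1.22, adjusted p = 0.0095).

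Cyp51, the lanosterol demethylase, was at 6.77, 6.47 and 6.98 FPKM at 0 hr, at 8.68, 10.4, 8.52, 11.9 and 9.47 at 6 hr and at 5.83, 6.57, 7.05 and 6.70 at 24 hr in control cells. Its 6 hr libraries did not overlap with either other time. The rise was smaller, 0.47 ± 0.18 or 1.39-fold (limma, adjusted p = 0.0413), and the fall to 24 hr was -0.51 ± 0.17 (adjusted p = 0.0251). The 6 hr call was close to the threshold and was lost without any of 6 libraries, 0 hr replicates 1, 2 and 3 and 6 hr replicates 2, 4 and 5 (adjusted p from 0.0539 to 0.11), and with the replicate number as a block (0.0813). The fall was not called without 24 hr replicate 1 (0.0687) or 6 hr replicate 4 (0.0697).

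Fdft1 and Lss, the enzymes before and after squalene oxidation, did not pass the test at either time in control cells. Fdft1 was at 6.44, 5.48 and 5.28 FPKM at 0 hr, at 8.49, 6.95, 8.19, 10.3 and 5.40 at 6 hr and at 5.41, 6.92, 4.11 and 5.61 at 24 hr. Lss was at 5.47, 2.43 and 3.57, at 5.45, 7.22, 3.34, 5.57 and 3.45, and at 2.81, 3.71, 3.38 and 2.01. The times overlapped for both genes, and the 6 hr differences were 0.38 (95% confidence interval -0.08 to 0.83) for Fdft1 and 0.32 (-0.23 to 0.88) for Lss. From 6 to 24 hr Fdft1 differed by -0.44 (limma, adjusted p = 0.112), and Lss by -0.57 (limma, adjusted p = 0.0871), which was called without 6 hr replicate 3 (-0.68, adjusted p = 0.048).

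Insig1, the sterol-sensing retention protein, was still called at 24 hr. It was at 18.5, 17.9 and 9.82 FPKM in the control libraries at 0 hr, at 23.6, 36.3, 26.4, 31.5 and 34.2 at 6 hr and at 24.04, 26.4, 24.2 and 64.6 at 24 hr. All libraries after LPS were above all libraries at 0 hr, and 24 hr replicate 4 stood far above its group. The changes from 0 hr were 0.97 ± 0.26 or 1.96-fold at 6 hr (limma, adjusted p = 0.00384) and 1.04 ± 0.27 or 2.05-fold at 24 hr (adjusted p = 0.00716), and without 24 hr replicate 4 the latter was 0.70 (adjusted p = 0.0227). Both calls were lost without 0 hr replicate 3, the lowest library, where the changes were 0.69 (adjusted p = 0.0530) and 0.76 (adjusted p = 0.0743). The 24 hr call was also lost when the 0 and 24 hr control groups were fitted alone (adjusted p = 0.0815). Between 6 and 24 hr Insig1 differed by 0.07, with a 95% confidence interval of -0.42 to 0.56, and by -0.26 (adjusted p = 0.329) without 24 hr replicate 4. Counted over the 6 genes, 1 of 6 was called at 24 hr against 0 hr, where 21.3% of all genes were called and 12.1% called higher. From 6 to 24 hr 3 of 6 fell, where 28.3% were called and 13.3% called lower.

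**Figure D1:**
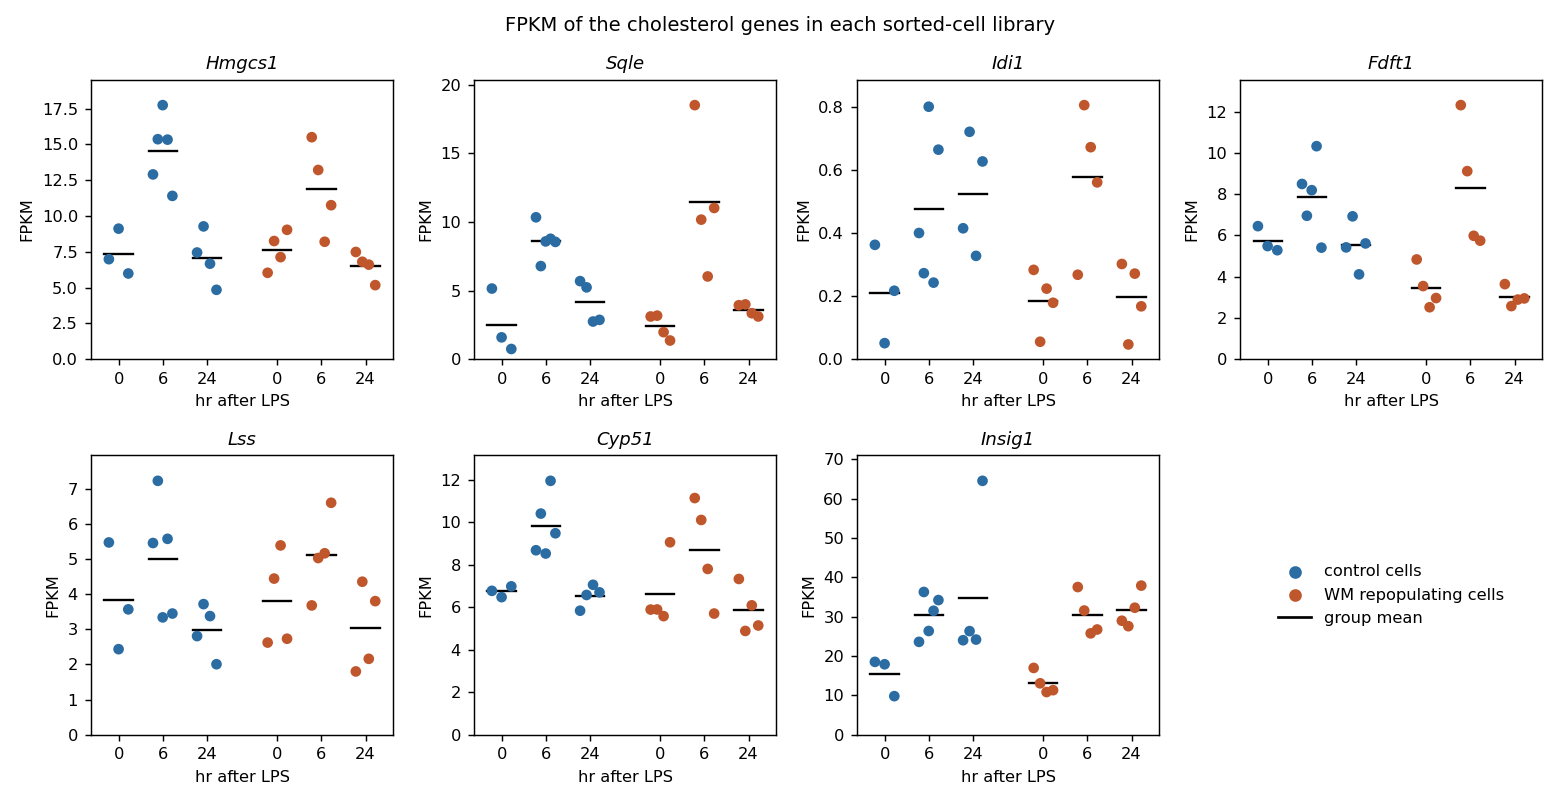
FPKM of the cholesterol genes in each sorted-cell library (y axis, linear) against hours after LPS (x axis), in control and WM repopulating cells, with group means as lines. The 6 hr libraries stand above 0 hr for Sqle and Insig1 in both kinds of cells, and Insig1 stays high at 24 hr, with 1 control library at 64.6 FPKM.

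The same course was then read in cells of WM repopulated mice. At 6 hr, 4 of the 6 tested genes rose (Sqle, Insig1, Fdft1 and Hmgcs1) and none fell, with a median log2 fold change of 0.80. Of all tested genes 38.8% were called and 19.3% called higher. Both tested precursor markers, Vcan and Cspg4, rose at 6 hr and fell to 24 hr in these cells, whereas in control cells only Vcan did. At 24 hr Insig1 alone was called of the 6, where 18.8% of all genes were called and 10.5% called higher. From 6 to 24 hr Sqle, Fdft1 and Hmgcs1 fell, 3 of 6, where 15.7% of all genes were called and 7.5% called lower.

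Sqle was at 3.11, 3.17, 1.96 and 1.35 FPKM in the WM libraries at 0 hr, at 18.5, 10.2, 6.03 and 11.02 at 6 hr and at 3.93, 3.99, 3.35 and 3.11 at 24 hr. All 6 hr libraries were above all others, with replicate 1 the highest of the 24 sorted-cell libraries. In WM cells 39.9% of all tested genes did not overlap between 6 and 0 hr. The share was 25.1% between 24 and 0 hr and 23.1% between 24 and 6 hr. The rise of Sqle was 1.82 ± 0.31 or 3.52-fold (limma, adjusted p = 6.41e-05) and its fall to 24 hr was -1.35 ± 0.31 (adjusted p = 0.0045).

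Fdft1 was at 4.83, 3.54, 2.51 and 2.96 FPKM at 0 hr, at 12.3, 9.11, 5.98 and 5.74 at 6 hr and at 3.63, 2.57, 2.88 and 2.94 at 24 hr in WM cells. The 6 hr libraries did not overlap with the other times. It rose by 1.03 ± 0.21 or 2.04-fold (limma, adjusted p = 0.000509) and changed by -1.16 ± 0.21 from 6 to 24 hr (adjusted p = 0.000617). Ctsb, the cathepsin gene that shares exon bases with Fdft1, was at 608 to 955 FPKM in the sorted cells, with medians between 749 and 835 in the 6 groups, and its part in the Fdft1 values was not tested.

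Hmgcs1 was at 6.03, 8.25, 7.12 and 9.03 FPKM at 0 hr, at 15.5, 13.2, 8.20 and 10.8 at 6 hr and at 7.48, 6.80, 6.60 and 5.17 at 24 hr in WM cells. Replicate 3 at 6 hr fell within the 0 hr range, and the 24 hr libraries were all below the 6 hr ones. The rise was 0.56 ± 0.20 or 1.48-fold (limma, adjusted p = 0.0256), and it did not pass without 0 hr replicate 1 (0.0851) or 3 (0.0567) or 6 hr replicate 1 (0.104) or 2 (0.0737). The fall to 24 hr was -0.76 ± 0.20 (adjusted p = 0.00986).

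Insig1 was at 17, 13.1, 10.9 and 11.3 FPKM at 0 hr, at 37.6, 31.6, 25.8 and 26.8 at 6 hr and at 29.0, 27.6, 32.3 and 37.9 at 24 hr in WM cells. Every library after LPS was above every library at 0 hr. The differences from 0 hr were 1.16 ± 0.25 or 2.24-fold at 6 hr (limma, adjusted p = 0.000637) and 1.23 ± 0.25 or 2.34-fold at 24 hr (adjusted p = 0.00108), and the 24 hr call held in every fit that left out 1 library.

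Cyp51 and Lss did not pass in WM cells. Cyp51 was at 5.89, 5.89, 5.58 and 9.05 FPKM at 0 hr, at 11.1, 10.1, 7.80 and 5.70 at 6 hr and at 7.33, 4.88, 6.09 and 5.14 at 24 hr. Its 6 hr difference was 0.34 (95% confidence interval -0.03 to 0.70, limma adjusted p = 0.143), and it passed without 0 hr replicate 4 (0.48, adjusted p = 0.0427) or without 6 hr replicate 4 (0.50, adjusted p = 0.0279). From 6 to 24 hr Cyp51 differed by -0.47 (adjusted p = 0.0719), which was called without 6 hr replicate 4 (-0.64, adjusted p = 0.0154). Lss was at 2.62, 4.44, 5.38 and 2.73, at 3.68, 5.03, 5.16 and 6.60, and at 1.80, 4.35, 2.16 and 3.80, with overlapping times, a 6 hr difference of 0.37 (-0.17 to 0.91) and a difference of -0.63 (adjusted p = 0.103) from 6 to 24 hr. Idi1, with at most 16 reads, ranged from 0.0507 to 0.363 FPKM at 0 hr, from 0.243 to 0.802 at 6 hr and from 0.328 to 0.723 at 24 hr in control cells. In WM cells it ranged from 0.0552 to 0.284, from 0.268 to 0.807 and from 0.0466 to 0.302. The Idi1 values overlapped between times at this depth.

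**Figure D2:**
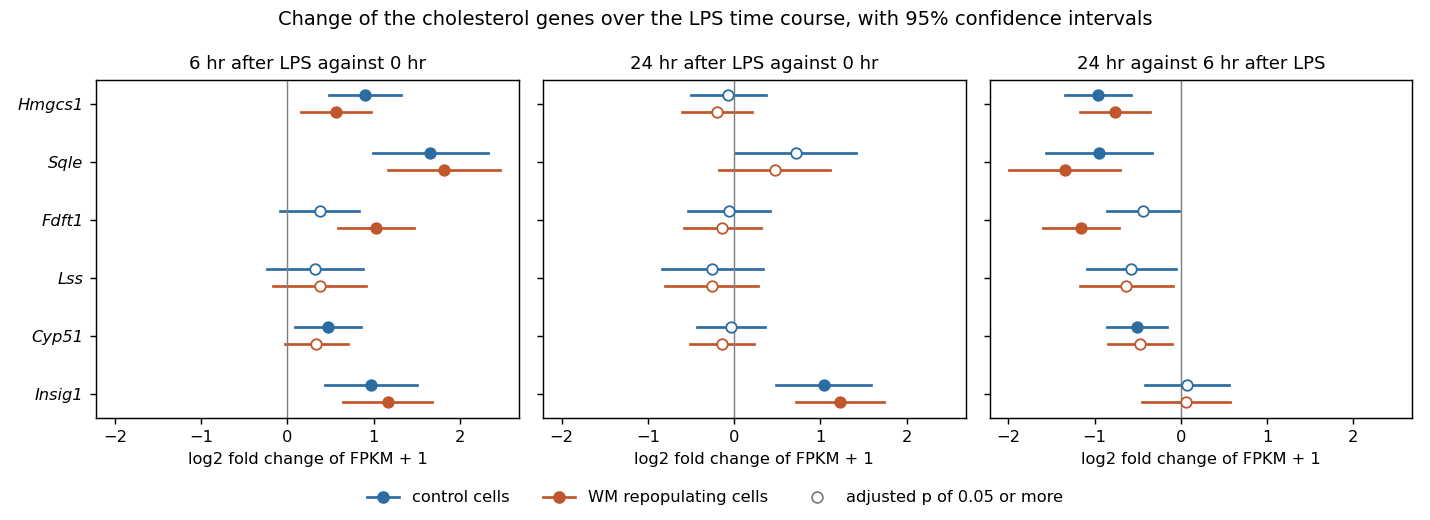
Log2 fold changes of FPKM + 1 (x axis) of the tested cholesterol genes (y axis) between the times of the LPS course in control and WM repopulating cells, with 95% confidence intervals as bars. Sqle shows the largest 6 hr change in both kinds of cells (1.66 and 1.82), and Insig1 the largest at 24 hr (1.04 and 1.23).

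Whether WM repopulating cells differed from control cells was tested at each time. None of the 6 genes was called at 0, 6 or 24 hr, against 1.21%, 0.323% and 3.97% of all genes. Fdft1 came nearest: its WM libraries lay below all control libraries at 0 hr, with a difference of -0.62 ± 0.23 (95% confidence interval -1.10 to -0.14, limma adjusted p = 0.238), and at 24 hr, with -0.69 ± 0.21 (-1.13 to -0.25, adjusted p = 0.0694). Of all tested genes, 13.6% and 12.1% did not overlap between WM and control cells at these times. The endothelial marker sum, from the 2 of 5 markers listed, lay lower in WM cells without overlap at the same times. It was at 1.94 to 4.90 against 8.17 to 12.7 FPKM at 0 hr and 1.197 to 7.15 against 7.43 to 12.6 at 24 hr. Pecam1 was called lower (-1.54 and -1.56), while Flt1 was at 0.13 and 0.11. Border-associated macrophage sums were also lower without overlap, at 17.8 to 27.6 against 31.7 to 99.3 FPKM and 9.32 to 18.2 against 32.7 to 39.8. So were astrocyte sums at 0 hr (37.5 to 52.2 against 55.6 to 61.6). At 24 hr monocyte and neutrophil sums were lower in the same way (2677 to 5694 against 5742 to 13780). The part of these markers in the Fdft1 values was not tested. At 6 hr the Fdft1 values of the groups overlapped, with a difference of 0.03 (-0.39 to 0.45). The 24 hr Fdft1 difference passed with the replicate block (limma, adjusted p = 0.0457) and without WM 6 hr replicate 1 (adjusted p = 0.0493). For the other 5 genes the differences at 24 hr lay between -0.15 for Cyp51 and -0.01 for Insig1, and the latter became 0.33 without control 24 hr replicate 4. The WM minus control differences of the 6 hr responses, of the 24 hr responses and of the 6 to 24 hr changes were also not called for any of the 6 genes, against 0.0237%, 0.0867% and 0.158% of all genes. For Fdft1 they were 0.65 (0.01 to 1.29, adjusted p = 0.692) at 6 hr and -0.72 (-1.33 to -0.11, adjusted p = 0.424) from 6 to 24 hr.

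Over the 24 sorted-cell libraries Hmgcs1 moved most closely with Cyp51 (Pearson r = 0.77), Sqle (0.73) and Fdft1 (0.71). For Insig1 r was 0.56 with Sqle, 0.34 with Fdft1, 0.245 with Cyp51, 0.17 with Hmgcs1 and -0.08 with Lss. These correlations describe libraries that share the LPS course as well as depth. The genes outside the 7 most like the mean standardised level of the 6 tested genes, among 12678 ranked, were Setd8 (0.932), Vcan (0.932), Adora2b (0.928), Mndal (0.928) and Ifi203 (0.927). Mndal and Ifi203 are neighbouring, closely similar interferon-inducible genes that can share reads. Hsd17b7, a late enzyme of the pathway, ranked 384 with r = 0.80, the highest of the 14 other enzymes of the pathway. Of these, 5 had a negative r: Ebp (-0.70), Dhcr7 (-0.65), Tm7sf2 (-0.47), Mvk (-0.33) and Nsdhl (-0.32).

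The other genes of the pathway were read from lists, as counts called higher and lower. Of 14 other cholesterol synthesis enzymes, all tested, 3 rose and 3 fell at 6 hr in control cells (median 0.19) and 5 rose and 1 fell in WM cells (0.07). At 24 hr 3 and 2 rose and none fell. The 6 of 14 called at 6 hr in each kind of cells stand beside 42.5% (21.4% higher) and 38.8% (19.3% higher) of all genes in control and WM cells. The 3 and 2 of 14 that rose at 24 hr stand beside 12.1% and 10.5% of all genes called higher. Hsd17b7, which acts on the sterol ring late in the pathway, rose by 1.69 ± 0.25 at 6 hr in control cells (limma, adjusted p = 8.86e-06) and by 1.91 ± 0.24 in WM cells (adjusted p = 1.36e-06), from 0.306 to 1.24 and 0.173 to 1.24 FPKM at 0 hr to 2.96 to 6.28 and 4.23 to 6.03. It was still higher at 24 hr (0.91 and 1.06; the control value was 0.65 with adjusted p = 0.124 without 0 hr replicate 3). Mvd, the decarboxylase before Idi1, rose by 1.45 and 0.92 at 6 hr (the WM value not called without WM 0 hr replicate 1 or 4 or WM 6 hr replicate 1 or 4), and Pmvk, the kinase before Mvd, by 1.07 and 1.17. Tm7sf2, a sterol reductase, differed: at 6 hr it was at -0.26 and -0.63 (neither called), and from 6 to 24 hr it rose by 1.42 ± 0.28 (adjusted p = 0.000521) and 1.298 ± 0.295 (adjusted p = 0.00381). The 3 enzymes that fell at 6 hr in control cells, named here after their values were seen, were Mvk (-0.74), Dhcr7 (-0.67) and Ebp (-0.62), and Ebp was also the 1 that fell in WM cells (-0.39).

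Of 7 genes that control SREBP, 1 rose and 2 fell at 6 hr in control cells, and none rose and 2 fell in WM cells. At 24 hr none rose, and 0 and 1 fell. That is 3 and 2 of 7 called at 6 hr, where 42.5% and 38.8% of all genes were. Srebf2, the gene of the factor that drives this pathway, was at 5.97 to 12.1 FPKM at 0 hr and 16.1 to 34.6 at 6 hr in control cells, with no overlap, and rose by 1.36 ± 0.31 (limma, adjusted p = 0.000976). In WM cells it was at 9.94 to 14.7 and 13.01 to 18.5, overlapping, with a difference of 0.34 ± 0.30 (adjusted p = 0.394), and the WM minus control difference of these responses was -1.03 (adjusted p = 0.648). At 24 hr Srebf2 was 0.03 and -0.45 from 0 hr, with control replicate 4 lowest at 2.83 FPKM, and without that library the control difference was 0.46 (limma, adjusted p = 0.193). Srebf1, its partner for fatty acid genes, was not called at either time against 0 hr. Insig2, the paralog of Insig1, went the other way at 6 hr, with -0.71 ± 0.18 (adjusted p = 0.00285) in control and -0.56 ± 0.17 (adjusted p = 0.0138) in WM cells, and was not called at 24 hr (-0.15 and -0.33). Mbtps1, the protease that makes the first cut in SREBP, fell at 6 hr (-0.57 and -0.87).

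**Figure D3:**
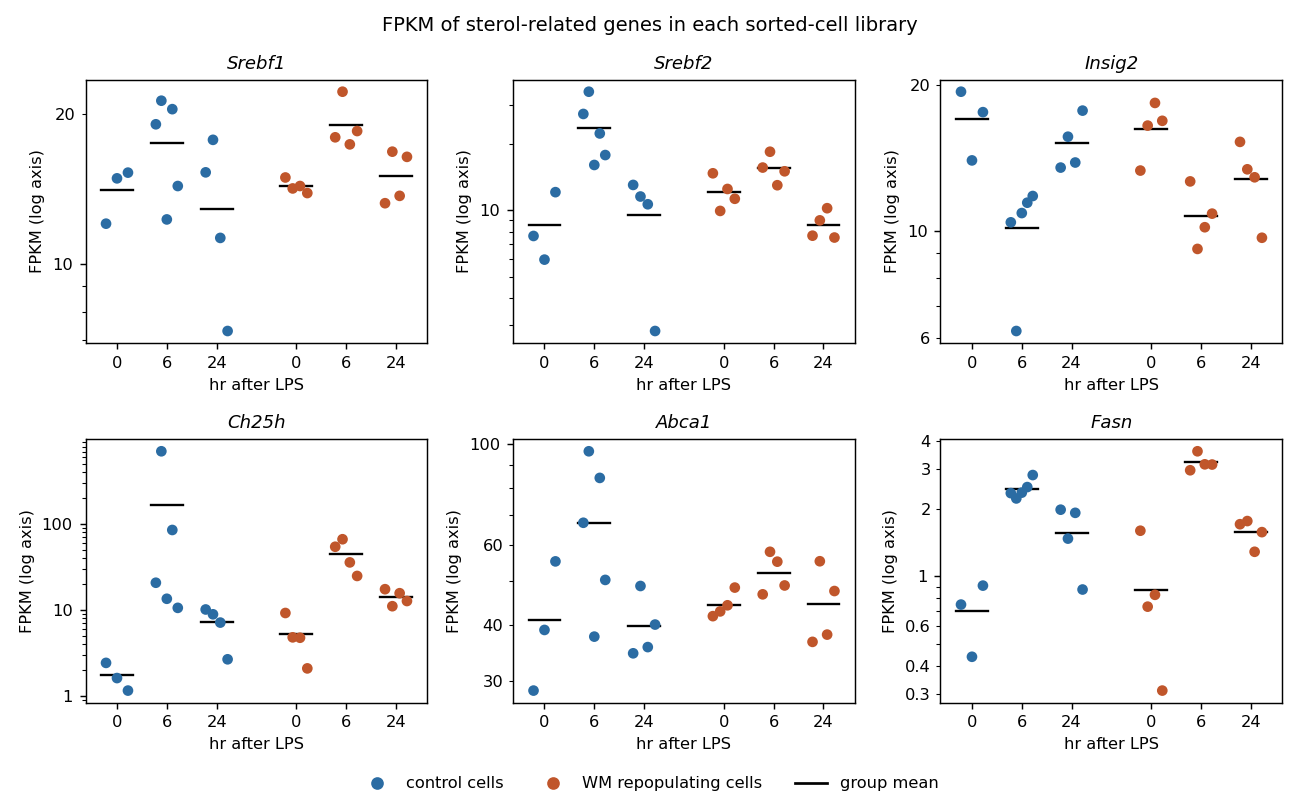
FPKM of Srebf1, Srebf2, Insig2, Ch25h, Abca1 and Fasn in each sorted-cell library (y axis, logarithmic) against hours after LPS (x axis), with group means as lines. Insig2 libraries at 6 hr all lie below those at 0 hr in each kind of cells, and Ch25h has 1 control library at 704.7 FPKM at 6 hr.

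Of 9 uptake and lysosomal genes 7 were tested. At 6 hr none rose and 3 fell in control cells and 1 rose and 3 fell in WM cells. At 24 hr the counts were 1 and 2 in control cells and 0 and 3 in WM cells. The 3 and 4 of 7 called at 6 hr compare with 42.5% and 38.8% of all genes, and the 3 of 7 at 24 hr with 21.3% and 18.8%. Mylip, an ubiquitin ligase and LXR target that limits lipoprotein uptake, fell at 6 hr (-0.74 in control and -0.46 in WM cells, the latter not called without WM 0 hr replicate 4 or WM 6 hr replicate 1 or 4). The lysosomal genes Lipa, the acid lipase that frees cholesterol from its esters, and Npc1, which exports it, fell at 6 hr in control (-1.497 and -1.13) and in WM cells (-1.495 and -0.88). Stard4, a carrier of cholesterol between membranes, was the gene that rose: by 0.69 ± 0.25 at 6 hr in WM cells (limma, adjusted p = 0.0306, not called without WM 0 hr replicate 4 or WM 6 hr replicate 1 or 2) and by 0.79 ± 0.27 at 24 hr in control cells (adjusted p = 0.0367, not called without 0 hr replicate 2 or 3 or 24 hr replicate 1, 3 or 4).

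Of 12 genes of liver X receptor (LXR) targets, efflux, esterification and oxysterols, 10 were tested. At 6 hr 3 rose and 4 fell in control cells and 2 rose and 4 fell in WM cells, and at 24 hr 1 rose and 4 fell, and 1 rose and 2 fell. Of these 10 genes 7 and 6 were called at 6 hr, beside 42.5% and 38.8% of all genes, and 5 and 3 at 24 hr, beside 21.3% and 18.8%. Ch25h, which makes 25-hydroxycholesterol, an oxysterol that restrains SREBP processing, was at 1.15 to 2.42 FPKM at 0 hr and at 20.8, 705, 13.5, 85.4 and 10.6 in the 5 control libraries at 6 hr. It rose by 4.13 ± 0.81 (limma, adjusted p = 0.000243) and by 3.15 (adjusted p = 2.62e-05) without replicate 2, and by 2.93 ± 0.79 (adjusted p = 0.00468) in WM cells. At 24 hr it did not pass (1.499 and 1.399), although both did without control 6 hr replicate 2 (adjusted p of 0.0329 and 0.0347). Nr1h3, the gene of LXR alpha, rose by 3.24 and 3.21 at 6 hr and by 3.83 and 2.90 at 24 hr, from at most 2.08 FPKM at 0 hr. Cyp27a1, a sterol hydroxylase, fell at 6 hr (-2.46 and -2.03), and so did the efflux transporter Abcg1 (-2.17 and -1.22). Abca1, the other major efflux transporter, rose by 0.67 in control cells (adjusted p = 0.0213, lost in 4 of the fits without 1 library) and was 0.23 from 0 hr in WM cells.

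Of 11 fatty acid synthesis genes, 7 were tested. At 6 hr 2 rose and 2 fell in control cells and 1 rose and 2 fell in WM cells, and at 24 hr 1 rose and 1 fell, and none rose and 1 fell. The 4 and 3 of 7 called at 6 hr and the 2 and 1 at 24 hr stand beside 42.5%, 38.8%, 21.3% and 18.8% of all genes. Fasn, the fatty acid synthase, rose by 1.03 ± 0.19 (limma, adjusted p = 0.000127) and 1.22 ± 0.19 (adjusted p = 1.35e-05) at 6 hr. Fads1, a desaturase, fell at 6 hr (-0.86 and -1.22). Scd2, another desaturase, fell in control cells (-0.96) and was at -0.39 in WM cells, and Acaca, the carboxylase before Fasn, rose by 0.51 in control cells (not called without 0 hr replicate 1 or 3) and was at 0.32 in WM cells; neither WM value passed the test.

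**Figure D4:**
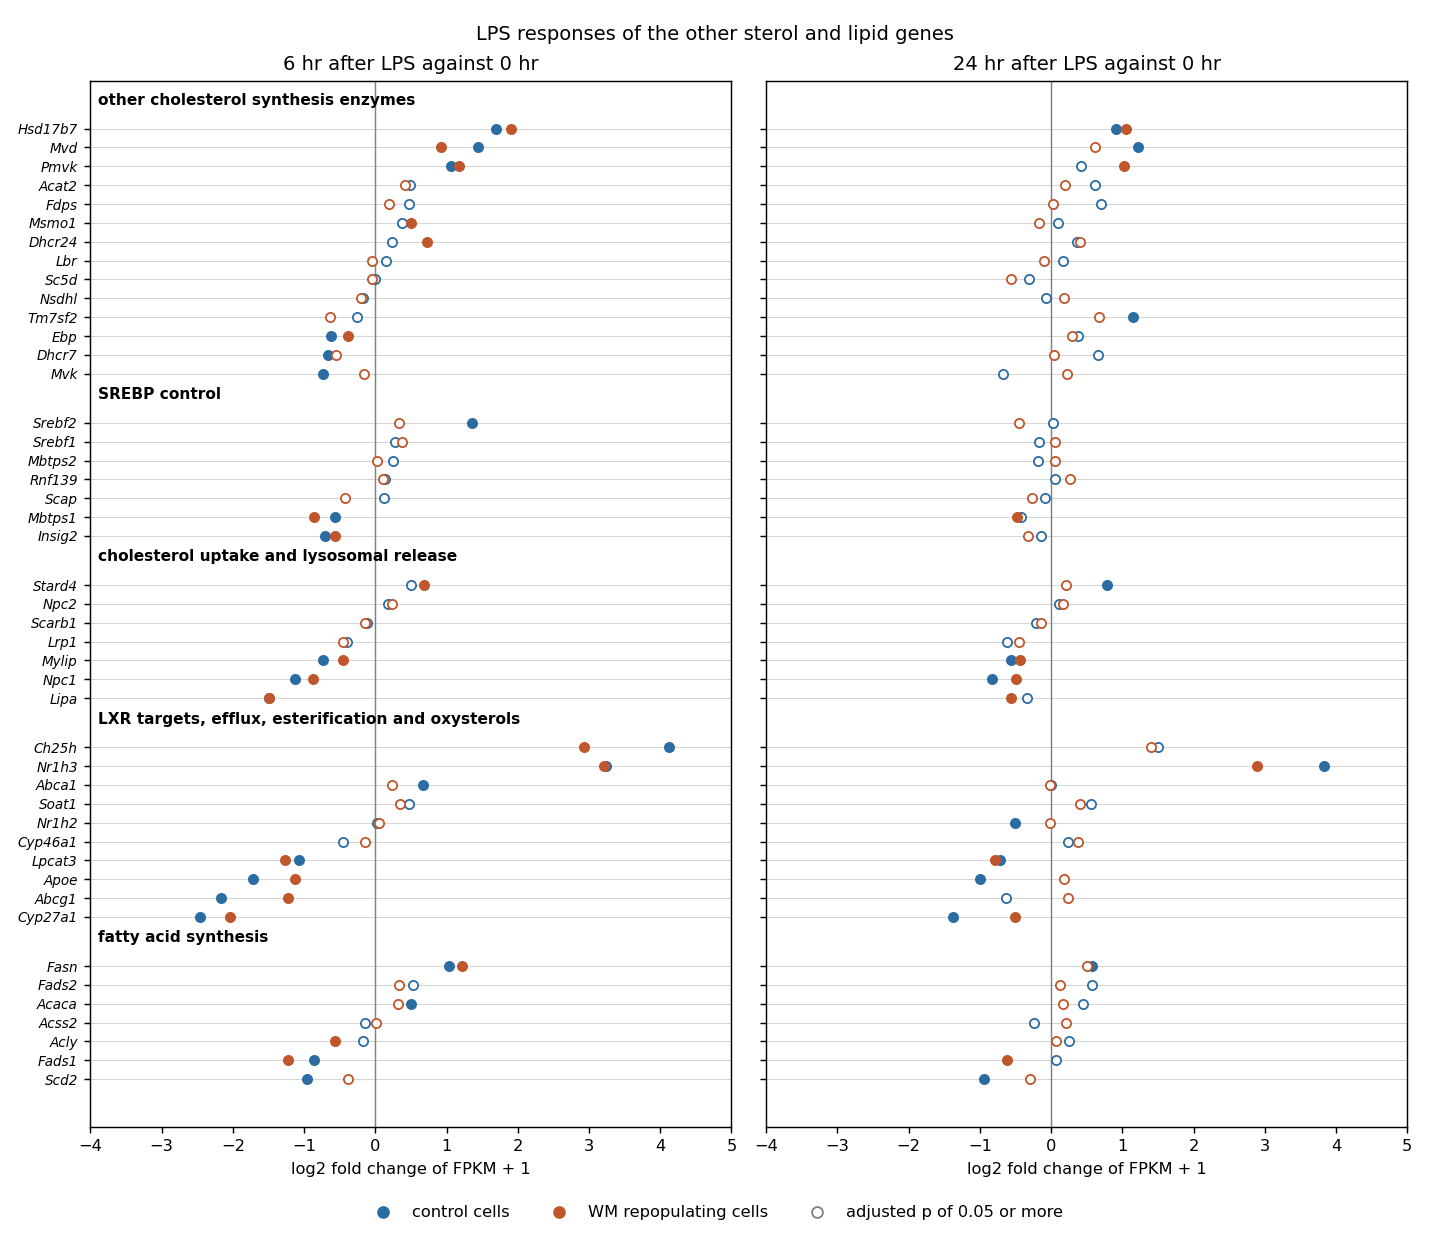
Log2 fold changes of FPKM + 1 (x axis) of the other sterol and lipid genes (y axis, grouped by list) at 6 and 24 hr after LPS against 0 hr in control and WM repopulating cells. Open circles did not pass the test, and each list holds genes on both sides of 0 at 6 hr.

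SVZ tissue gave the same genes in a mixture of brain cells. The microglial marker sum there was 100.3 to 138 FPKM in controls, 3.07 to 3.90 after PLX3397 and 5.03 to 9.64 at 5 days of recovery, whereas the sum of the 7 oligodendrocyte markers was 2405 to 3201, 2792 to 5149 and 2185 to 3316. The astrocyte sum was 1173 to 1613, 1533 to 1683 and 1664 to 2590, and the oligodendrocyte precursor sum 16.4 to 22.6, 6.70 to 10.1 and 7.33 to 11.6. All 5 controls, PLX3397 replicate 5 and recovery replicates 1, 2 and 5 held even read counts, as if each read had been counted a second time. An effect of PLX3397 and this counting class therefore cannot be told apart, except through PLX3397 replicate 5. FPKM itself divides the doubling out. Per transcript length the levels in tissue ran from a median of 64.1 FPKM for Hmgcs1 through Fdft1 (34.8), Sqle (26.6), Insig1 (26.2), Cyp51 (17.8) and Lss (15.2) to Idi1 (0.889). The tables were normalized separately, so these levels and those of the sorted cells are set side by side without a test.

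None of the 7 genes was called in SVZ tissue after PLX3397, at recovery against control or at recovery against PLX3397, where 1.26%, 1.27% and 0.325% of all genes were called. The differences from control were above 0 for all 7 in both comparisons, with medians of 0.13 after PLX3397 and 0.19 at recovery, where 52% and 48.9% of all tested genes were above 0. The 2 comparisons share the control samples, and without 1 library Cyp51 reached -0.003 after PLX3397 and Lss -0.03 at recovery.

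Hmgcs1 was at 58.3, 56.9, 58.4, 65.0 and 61.2 FPKM in control tissue, at 66.9, 66.0, 63.3, 74.7 and 74.4 after PLX3397 and at 74.7, 65.6, 58.9, 61.7 and 64.1 at recovery. The PLX3397 libraries were mostly higher, with control replicate 4 inside their range, and the difference was 0.20 (95% confidence interval 0.04 to 0.36, limma adjusted p = 0.561). Lss was at 17.7, 12.7, 15.2, 12.2 and 13.9, at 17.4, 16.2, 18.6, 19.4 and 15.7, and at 16.4, 14.01, 14.2, 13.2 and 14.4, with a PLX3397 difference of 0.28 (0.07 to 0.48, adjusted p = 0.442) and a recovery minus PLX3397 difference of -0.26 (adjusted p = 0.243; -0.36 with adjusted p = 0.394 among libraries with reads counted once). Both genes overlapped between the groups.

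Fdft1 was at 33.2, 28.3, 31.3, 34.8 and 30.7 FPKM in control tissue, at 35.2, 36.8, 33.5, 32.6 and 37.7 after PLX3397 and at 42.7, 40.6, 33.3, 37.2 and 39.3 at recovery. All recovery libraries but replicate 3 were above every control, whereas PLX3397 replicates 3 and 4 lay below control replicate 4, and the recovery difference was 0.28 ± 0.08 (limma, adjusted p = 0.122). Sqle was at 27.9, 19.8, 22.9, 26.1 and 23.7, at 26.6, 25.4, 23.3, 27.7 and 28.0, and at 32.9, 30.7, 22.4, 30.7 and 31.9, with a recovery difference of 0.29 ± 0.11 (adjusted p = 0.212). Recovery replicate 3 lay low for both, and without it Sqle (0.39, adjusted p = 0.0401) and Fdft1 (0.33, adjusted p = 0.0378) were called. Among the libraries with even counts alone, where the groups share the counting class, the recovery differences were 0.40 for Sqle (adjusted p = 0.251) and 0.36 for Fdft1 (adjusted p = 0.192).

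Insig1 was at 29.3, 23.4, 25.6, 24.8 and 22.9 FPKM in control tissue, at 24.2, 29.1, 22.02, 30.0 and 26.2 after PLX3397 and at 39.4, 29.8, 23.6, 32.3 and 31.2 at recovery. Recovery replicate 1 was the highest, the groups overlapped, and the recovery difference was 0.29 (95% confidence interval 0.04 to 0.54, limma adjusted p = 0.25). Cyp51 spanned 15.8 to 20.1, 17.2 to 19.1 and 15.1 to 23.6 FPKM in the 3 groups, and Idi1 0.586 to 1.16, 0.395 to 0.983 and 0.680 to 1.19, with recovery differences of 0.10 and 0.19. Both overlapped throughout. In the same tissue Mylip was lower after PLX3397 (-0.55, adjusted p = 0.0029) and Abca1 at recovery (-0.49, adjusted p = 0.0101); of the listed genes these were named after their values were seen.

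In the sorted cells of GLOBAL repopulated mice 28 days after the inhibitor was withdrawn, no gene of the 16651 tested was called by limma (0%), while 1504 had an unadjusted p under 0.05. None of the 7 genes was an exception. Hmgcs1 was at 3.32, 3.59, 5.55 and 3.89 FPKM in control and at 4.83, 5.16 and 5.79 in GLOBAL cells, overlapping, with a difference of 0.32 (95% confidence interval -0.13 to 0.76). Idi1 was at 2.16, 1.74, 2.38 and 1.58 against 1.16, 1.49 and 0.675, from 6 to 23 reads, without overlap and with a difference of -0.50 (-1 to -0.005, limma adjusted p = 0.547). Of all tested genes 9.96% did not overlap between the groups.

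Insig1 was again the highest of the 7 genes, at 12.7, 7.87, 13.6 and 10.8 in control and 11.99, 7.66 and 8.89 FPKM in GLOBAL cells. The groups overlapped, with a difference of -0.22 (95% confidence interval -0.69 to 0.26). For Sqle, Fdft1, Lss and Cyp51 the differences were -0.03, -0.26, 0.14 and 0.21 and the groups overlapped as well. Monocyte and neutrophil markers summed to 1577 to 18610 FPKM in control and 1071 to 3758 in GLOBAL cells. The sums of border-associated macrophage markers (23.4 to 32.1 and 13.7 to 16.95), endothelial markers (15.5 to 23.4 and 8.004 to 12.5) and astrocyte markers (30.2 to 31.95 and 24.1 to 28.6) were lower in GLOBAL cells without overlap, and their part in these values was not tested. Microglial, oligodendrocyte, precursor and neuronal sums overlapped.

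**Figure D5:**
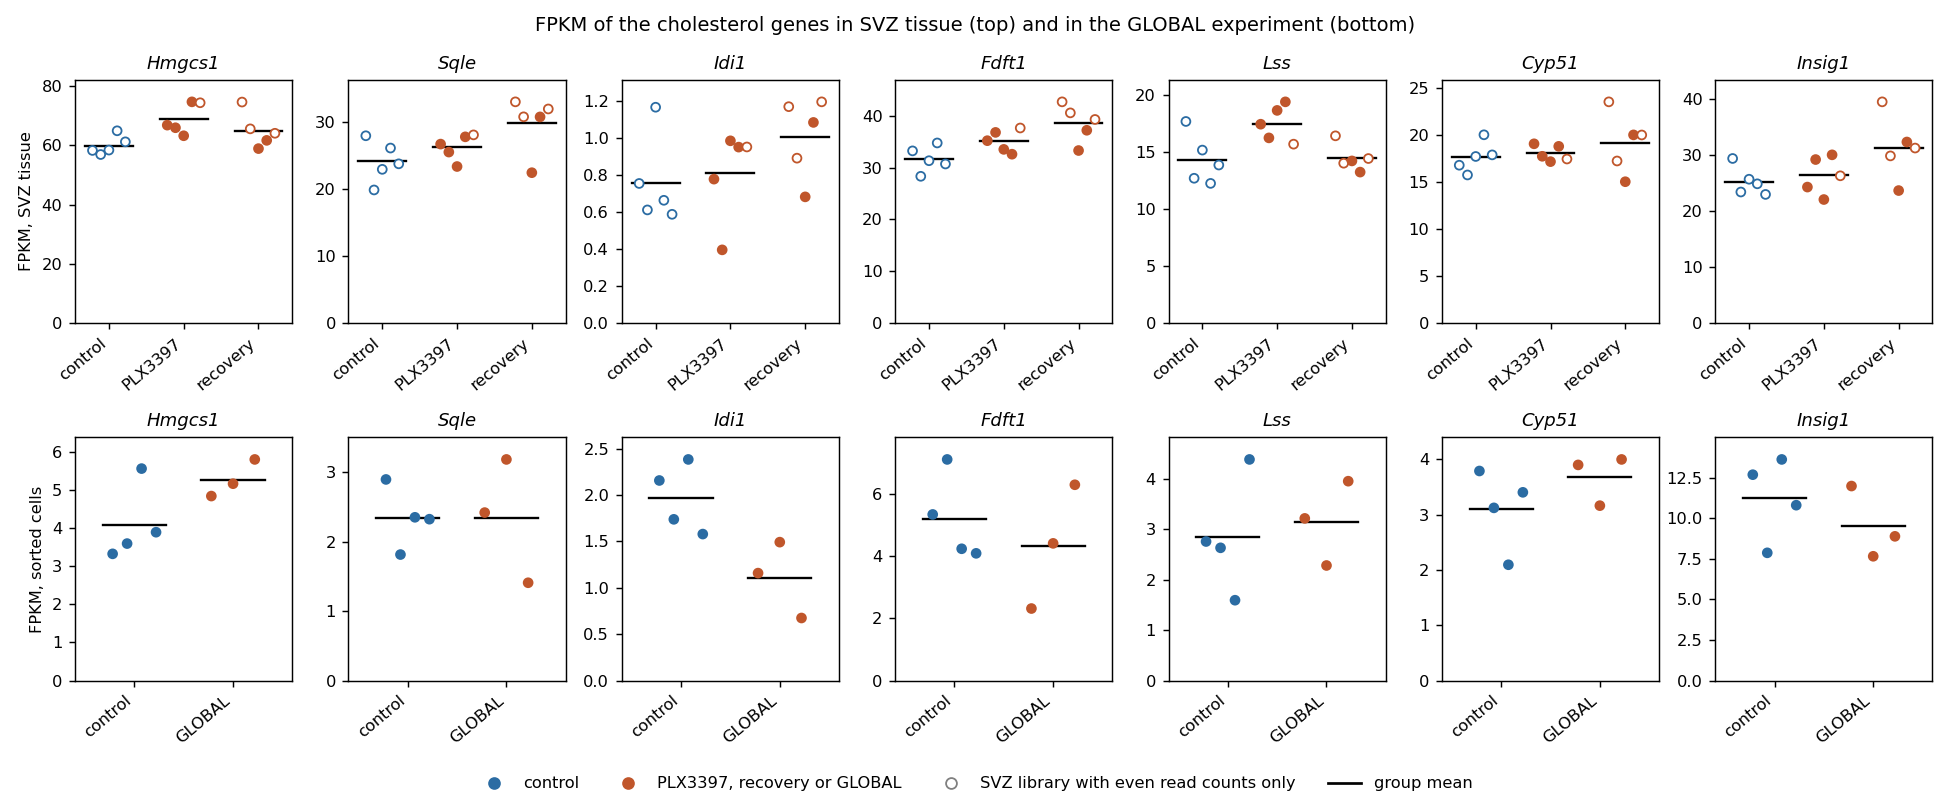
FPKM (y axes) of the cholesterol genes in SVZ tissue (top, control, PLX3397 and recovery) and in sorted control and GLOBAL repopulating cells (bottom), 1 point per library with group means as lines and SVZ libraries with even read counts as open points. Recovery replicate 3 is the low Sqle point at 22.4 FPKM, and the groups of most genes overlap.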

How the data were processed

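RNA was sequenced from sorted CD11b+CD45int cells and SVZ tissue, 46 samples in 3 tables. The authors deposited FPKM values; per the labels, reads were aligned to mm10 with STAR and counted with featureCounts, and limma and edgeR were used. FPKM steps gave whole reads for 99.987 to 99.99% of genes (tolerance 0.02 reads), which gave the depths and an added voom test. Here log2(FPKM + 1) was fitted with limma 3.58.1 in R 4.3.3 (eBayes with trend, all groups of a table, 2-sided) over genes at 1 FPKM or more in at least 3 samples, with Benjamini-Hochberg adjustment. Tested were 12684 sorted-cell, 14151 SVZ and 16651 GLOBAL genes; 25 SVZ symbols turned into dates were restored by Entrez number. The fit was tested on simulated data. The labels do not tie each sample to a separate animal, so p-values measure the spread between samples.

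The members and gene lists were chosen with earlier results of these data known. Some listed genes are not reported here. Named besides the members were Srebf1, Srebf2, Insig2, Ch25h, Abca1 and Fasn, up to 4 genes of each list with the largest mean absolute change over the 4 LPS responses among those called, and the 5 genes most correlated with the members. Alternatives were the pseudocount, filter, quantile normalization, variance trend, samples in the fit, a fold limit, the replicate block, voom, the SVZ counting classes and each library left out. Same-numbered samples were checked for shared deviations. The numbers did not pair the sorted-cell samples of the LPS course, and pairing could not be settled for SVZ and GLOBAL samples.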

Additional observations from a re-analysis of the deposited data

Results flagged for a closer look

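Of 63 sets of a gene and a group of 4 to 10 libraries, 4 held a library far from the others by Dixon's criterion, and chance gives about 1 in 20. Insig1 was at 64.57 FPKM in control 24 hr replicate 4, with the others at 24.04 to 26.36. Cyp51 was at 9.052 FPKM in WM 0 hr replicate 4, with the others at 5.578 to 5.892. Sqle was at 22.38 FPKM in SVZ 5 day recovery replicate 3, with the others at 30.69 to 32.93. Idi1 was at 1.164 FPKM in SVZ control replicate 3, with the others at 0.5863 to 0.7527, all of them few reads.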

How the results depend on the processing

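Of the 7 cholesterol genes no called value changed direction under any alternative listed. Over 46 fits without 1 library, 1981 of 2092 of their values kept their side of the threshold and their direction, 16 lost and 8 gained the call, and 87 that were not called changed sign; over 9 other alternatives these were 689 of 707, 5, 3 and 10. The number of the 6 sorted-cell genes called ranged without 1 library from 2 to 4 (control, 6 against 0 hr), 0 to 2 (24 against 0 hr), 2 to 4 (24 against 6 hr), 3 to 5, 1 to 1 and 3 to 4 (the same in WM cells), and 0 to 1 (WM against control, 24 hr). It ranged from 0 to 2 of 7 for SVZ recovery against control and was 0 to 0 in the remaining comparisons. With the groups compared alone, 0 genes were called in control cells at 24 against 0 hr (Insig1, adjusted p = 0.0815). With a fold limit of 1 log2 unit, 1 was called in control cells at 6 against 0 hr and 0 at 24 against 6 hr. With the replicate block, 3 were called in control cells at 6 hr, 2 at 24 against 0 hr, and 1 in WM against control cells at 24 hr. Same-numbered libraries correlated above 0.1 in 7 of 55 sorted-cell pairs (median -0.001 against -0.004 for other pairs). For SVZ these were 5 of 15 pairs (0.054 against -0.007) and for GLOBAL 2 of 3 (0.102 against -0.041). The numbers are not taken to pair samples, although for SVZ and GLOBAL pairing could not be settled. The causes were not tested.

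Over all genes, a fold limit lowered the counts from 5390 to 2381, 2708 to 1062 and 3593 to 1130 (control 6 against 0, 24 against 0, 24 against 6 hr), 4921 to 1952, 2389 to 789 and 1990 to 663 (WM), 154 to 99, 41 to 27 and 503 to 200 (WM against control at 0, 6 and 24 hr), and 179 to 101, 180 to 79 and 46 to 18 (SVZ). Fitting the compared groups alone gave 16 for 41, 255 for 503, and 29 for the 46 of SVZ recovery against PLX3397. The differences of responses called 3, 11 and 20 genes (6 hr, 24 hr, 6 to 24 hr), and 1, 6 and 9 with a pseudocount of 0.1, 0 and 17 for the first 2 with the compared groups, 0 and 6 with the block, and 0, 1 and 9 with voom. The even-count SVZ libraries gave 104 for 180, those with reads counted once 4 for 46, both chosen after seeing the data. GLOBAL went from 0 to 55 with the block and to 24 with voom, also added after seeing the data. At 1 to 16 reads the depth does not allow a statement on Idi1 in the sorted cells.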

Other observations

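Apoe, the main apolipoprotein of the brain and an LXR target, separated WM repopulating from control cells at 6 and 24 hr after LPS. It was named here after its values were seen. In control cells Apoe was at 1605 to 2538 FPKM at 0 hr, 464 to 750 at 6 hr and 644 to 1216 at 24 hr, and in WM cells at 2267 to 3637, 936 to 1692 and 2045 to 4047. At 6 hr every WM library was above every control library, and the WM minus control difference was 1.24 (limma, adjusted p = 0.011). At 24 hr the groups did not overlap either, and the difference was 1.83 (adjusted p = 9.49e-05). At 0 hr it was 0.65 (limma, adjusted p = 0.291). Of all tested genes 3.78% did not overlap between WM and control cells at 6 hr and 12.1% at 24 hr. The WM minus control differences of the 6 hr and 24 hr LPS responses were not called for Apoe.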
